A study of Mus musculus with 8 samples.

Results

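The colony-stimulating factors and their receptors were followed in MOPC tumours as a family of 8 genes, the 3 ligand genes Csf1, Csf2 and Csf3 and the 5 receptor genes Csf1r, Csf2ra, Csf2rb, Csf2rb2 and Csf3r, out of 18194 genes on the array. The probe sets carrying these symbols in the platform annotation were taken, and each gene was represented by the one with the highest mean signal over the 8 arrays. The probe sets were thus chosen by their mean signal, so the height of their signals is a description. The family itself was chosen with earlier results of these data known, so its counts of calls and its fold changes also describe these data and give no independent support. MOPC is a murine oropharyngeal carcinoma cell line that was injected s.c. into C57BL/6 hosts. The groups were tumours of KO hosts, which lack Tlr3, Tlr7 and Tlr9 in every cell of the mouse, and of wild-type (WT) hosts. Tumours of both genotypes were taken 6 days and 4 days after the injection, with 2 arrays per group. The injected cells were the same in all groups and kept their own Tlr genes, so the genotype is that of the host cells in the tumour. The study's methods name hosts of both sexes without tying a sex to an array. For day 6 they give 4 mice, 2 of each genotype, aged 8 to 16 weeks. For day 4 neither the age nor the number of mice was found in the labels or the methods, so that the spread between those 2 samples of a group may be technical.

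CSF-1 (M-CSF), encoded by Csf1, binds the receptor tyrosine kinase CSF-1R and keeps monocytes and macrophages alive and dividing, which makes this pair the main growth axis of tumour-associated macrophages. GM-CSF, encoded by Csf2, is made by activated T cells, epithelium and stroma, and signals through an alpha chain, Csf2ra, joined to the common beta chain Csf2rb, which IL-3 and IL-5 also use, while Csf2rb2 is a mouse beta chain that serves IL-3 alone. G-CSF, encoded by Csf3, drives the production and release of neutrophils through Csf3r, a receptor carried mainly by these cells.

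Between day 4 and day 6 the signals of Csf2rb and Csf1 rose in the tumours of both host genotypes, and that of Csf2rb2 rose in KO tumours. Csf2 was also called in both, but its day 4 signals were near background and it entered the test through its day 6 arrays. In all of these changes day and host sex cannot be told apart, because sex-linked genes differed between the days in both genotypes. No member differed between KO and WT tumours past the test at either day. At day 4 all 8 members had lower means in KO tumours, but the genotypes overlapped for 4 of them, Csf1, Csf2, Csf2ra and Csf3. Csf1 differed by only -0.01 on the log2 scale, and Csf3 was near background. The receptor chains Csf2rb and Csf2rb2 had the largest differences at day 4, while at day 6 the signs were mixed. With 2 arrays per group, each of these 7 calls with the day was lost when at least 1 array was left out, as given with each gene.

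The promoters of Csf1, Csf2 and Csf2rb2 are shown because these 3 members were called as higher with the day in KO tumours. Csf2rb2 was not called in WT tumours, and the 3 did not share 1 pattern over the arrays. Csf2rb, which was also called, had no promoter window to show. A RefSeq window, from 250 bases before to 50 bases after the start of the gene on build GRCm38.p6, was held by the table for 5 of the 8 members. The windows of Csf1 (chr3:107760420-107760719, minus strand), Csf2 (chr11:54249850-54250149, minus strand) and Csf2rb2 (chr15:78305672-78305971, minus strand) read 5′ to 3′ as follows, with motif matches in capitals.
Csf1: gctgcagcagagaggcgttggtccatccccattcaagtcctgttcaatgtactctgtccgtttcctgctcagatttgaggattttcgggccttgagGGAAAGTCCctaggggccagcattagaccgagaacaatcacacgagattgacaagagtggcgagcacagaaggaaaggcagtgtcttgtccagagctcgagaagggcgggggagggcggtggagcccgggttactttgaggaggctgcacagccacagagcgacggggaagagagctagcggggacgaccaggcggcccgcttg
Csf2: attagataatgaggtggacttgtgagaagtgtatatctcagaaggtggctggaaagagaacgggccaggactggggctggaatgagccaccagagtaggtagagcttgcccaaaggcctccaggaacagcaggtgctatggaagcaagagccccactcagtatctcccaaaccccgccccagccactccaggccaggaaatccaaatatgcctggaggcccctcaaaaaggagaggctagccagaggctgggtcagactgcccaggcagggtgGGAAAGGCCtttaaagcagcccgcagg
Csf2rb2: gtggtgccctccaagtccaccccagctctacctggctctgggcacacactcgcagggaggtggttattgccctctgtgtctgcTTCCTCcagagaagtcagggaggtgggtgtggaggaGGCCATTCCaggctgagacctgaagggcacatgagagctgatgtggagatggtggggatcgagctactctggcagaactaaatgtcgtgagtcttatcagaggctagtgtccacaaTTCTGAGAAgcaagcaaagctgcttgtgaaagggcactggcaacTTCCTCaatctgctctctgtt
The motifs searched, on both strands, were the core of PU.1, a myeloid factor (GAGGAA, in 28.3% of the 32851 promoter windows in the table), AP-1 (TGANTCA, 7.81%), an NF-kB-like motif (GGNNNTTCC, 18.5%), the STAT motif (TTCNNNGAA, 8.3%) and the TATA box (TATAAA, 13.6%). The Csf1 window held 1 NF-kB-like match on the opposite strand, whose first base lay at -154 from the start of the gene. The Csf2 window held 1 NF-kB-like match on the opposite strand, with its first base at 24 after the start. The Csf2rb2 window held the PU.1 core on the opposite strand at -167 and at 30, an NF-kB-like match at -131 and a STAT match at -15, and none of these matches overlapped another. A match describes the letters of the window and is neither a binding site nor a cause, and the NF-kB-like match found in each of the 3 windows is also in 18.5% of all windows.

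The values are signal intensities scaled by the authors to the same 2% trimmed mean of 1000 on every array. Median signals were 133.2 to 175.2, and paired arrays within a group had Spearman correlations of 0.941 to 0.953. Of the genes deleted in the KO hosts, Tlr7 had signals of 80.1 and 10.8 in KO day 6 tumours, against 471.3 and 466.1 in WT day 6 tumours. At day 4 its signals were 70.0 and 25.2 in KO tumours, against 382.9 and 673.4 in WT tumours. Tlr3 was lower on every KO array than on every WT array, at 224.0 to 427.2 against 543.9 to 811.1. Tlr9 was near background and was not lower in KO tumours. At day 6 its signals were 123.7 and 84.2 in KO tumours, both above the 20.8 and 58.5 in WT tumours. At day 4 the genotypes overlapped, at 128.5 and 102.2 in KO tumours against 137.6 and 34.2 in WT tumours. Whether the Tlr9 probe set lies in the deleted part was not determined. The Y-linked gene Eif2s3y was lower at day 6 than at day 4 (log2 fold change -5.02 in KO and -4.76 in WT tumours) and Xist was higher (6.45 and 5.57), so that day and host sex cannot be told apart in any comparison between days. Skeletal muscle genes, 10 of 10 tested, summed to 54376 on KO day 6 replicate 2, 23039 on KO day 4 replicate 2 and 141957 on WT day 4 replicate 2, against 1143 to 1284 on the other 5 arrays. Cornified skin genes, 6 of 10 tested, summed to 22122 on KO day 6 replicate 2 and to 1618 to 3536 elsewhere. Neutrophil genes, 12 of 18 listed and tested, summed to 27766 on WT day 4 replicate 1 and to 7964 to 15896 on the other arrays. Because the samples were pieces of whole tumour, fewer cells of a type and less RNA per cell cannot be told apart.

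**Figure D1:**
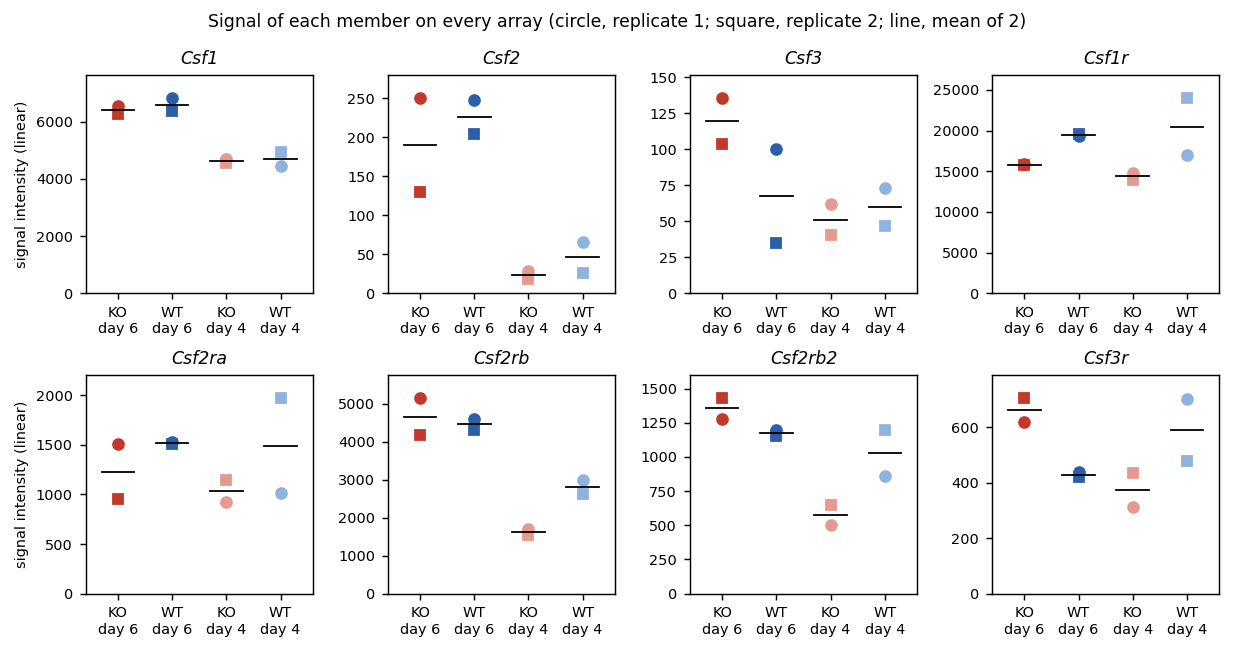
Signal intensity of the 8 members on each of the 8 arrays, on linear axes that start at 0, with a circle for replicate 1, a square for replicate 2 and a line for the mean of 2. The 4 day 6 arrays of Csf1, Csf2 and Csf2rb all lie above their 4 day 4 arrays, and the KO arrays of Csf1r lie below the WT arrays at both days.

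Csf1, the ligand for macrophage growth, rose with the day in both genotypes. It gave 6545.1 and 6269.1 in KO day 6 tumours and 6821.8 and 6363.0 in WT day 6 tumours, against 4708.5 and 4560.1 in KO day 4 tumours and 4436.8 and 4938.5 in WT day 4 tumours. Every day 6 array lay above every day 4 array, and the genotypes overlapped at each day. The log2 fold change of day 6 against day 4 was 0.47 in KO tumours (standard error 0.11, 95% interval 0.21 to 0.72, adjusted p = 0.0461 from limma) and 0.49 in WT tumours (standard error 0.11, 95% interval 0.24 to 0.74, adjusted p = 0.0404), both calls just inside the threshold of 0.05. The highest signal of Csf1 was 1.54 times its lowest. When 1 array was left out, the KO call held only without either WT day 4 array (adjusted p = 0.0318 and 0.0316) and was lost without any of the other 6 (0.0519 to 0.271). It was also lost with quantile normalization (0.053) and with all genes in the fit (0.0585), where the WT call held (0.0495). The WT call held only without WT day 4 replicate 2 (adjusted p = 0.0403) and was lost without any of the other 7 (0.0561 to 0.23). Averaged over its 4 probe sets, Csf1 passed in neither genotype (adjusted p = 0.212 in KO and 0.0649 in WT). Between genotypes, the difference of Csf1 was -0.04 at day 6 (95% interval -0.29 to 0.21) and -0.01 at day 4 (-0.27 to 0.24).

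Csf2 had the largest change with the day in the family. Its signals were 250.5 and 129.8 in KO day 6 tumours and 248.5 and 204.1 in WT day 6 tumours, against 28.2 and 18.7 in KO day 4 tumours and 66.1 and 26.6 in WT day 4 tumours. All 4 day 6 values lay above all 4 day 4 values, and KO and WT overlapped at both days. On the log2(signal + 16) scale Csf2 rose by 2.33 in KO tumours (standard error 0.47, 95% interval 1.25 to 3.42, adjusted p = 0.0340 from limma) and by 2.03 in WT tumours (standard error 0.47, 95% interval 0.94 to 3.11, adjusted p = 0.0450). All day 4 signals, and none of the day 6 signals, were below the 40th percentile of their own arrays, so Csf2 passed the expression limit through the day on which it was high, and its calls give no independent support to the rise. In the fit of all 18194 genes, with no such limit, its adjusted p was 0.0438 in KO tumours, which passed, and 0.0584 in WT tumours, which did not. The size of the fold depends on the constant added to the signal. It was 2.92 in KO tumours with 1 added and 1.5 with 64. The WT call was lost with 1 added (adjusted p = 0.0561) and without any one of the 8 arrays (adjusted p = 0.0523 to 0.27). The KO call was lost without either KO day 6 array (adjusted p = 0.131 without replicate 1 and 0.0741 without replicate 2) and without either KO day 4 array (0.145 without replicate 1 and 0.217 without replicate 2). T and NK cells are one source of GM-CSF. The sum over the 6 tested of 13 listed genes of these cells was 2927 and 2379 in KO day 6 tumours and 3853 and 2688 in WT day 6 tumours, against 1186 and 1348 in KO day 4 tumours and 1144 and 1775 in WT day 4 tumours. Gzmb, a cytotoxic granule protease, was the only one of the 6 called with the day, with a log2 change of 3.54 in KO and 2.40 in WT tumours (adjusted p = 0.00206 and 0.0132 from limma). The other 5 genes summed to 1187 and 1089 in KO day 6 tumours and 2100 and 1413 in WT day 6 tumours, against 1043 and 1258 in KO day 4 tumours and 896 and 1481 in WT day 4 tumours, and the days overlapped in both genotypes. Klrd1, an NK cell receptor, had -0.74 in KO tumours (adjusted p = 0.136). Cd3e, Cd4, Cd8b1 and Ncr1 were below the expression limit. Their part in the Csf2 result was not tested.

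Csf3 was close to background and lay under the limit of 78.6 for the mean signal, so it was fitted with all 18194 genes. It gave 135.7 and 103.9 in KO day 6 tumours, 100 and 35.2 in WT day 6 tumours, 61.8 and 40.2 in KO day 4 tumours and 72.9 and 47.0 in WT day 4 tumours. The KO day 6 arrays were the highest, both of them above every other array, and the remaining groups overlapped. The difference of KO against WT at day 6 was 0.81 (standard error 0.48, adjusted p = 0.864 from limma). Day 6 against day 4 gave 1.03 in KO tumours (95% interval -0.08 to 2.14, adjusted p = 0.27) and 0.04 in WT tumours (-1.07 to 1.15, adjusted p = 0.977).

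Csf1r, the receptor of CSF-1, had similar levels at the 2 days and lower levels in KO tumours. Its signals were 15851.2 and 15794.2 in KO day 6 tumours, against 19331.3 and 19543.8 in WT day 6 tumours. At day 4 they were 14798.8 and 13982.3 in KO tumours, against 16974.8 and 24010.3 in WT tumours. Each KO array lay below each WT array over both days, which made Csf1r the single member of the family with separated genotypes over both days, and 1.66% of the 12976 tested genes were lower in KO in this way. The KO effect was -0.30 at day 6 (standard error 0.16, adjusted p = 0.824 from limma), -0.49 at day 4 (standard error 0.16, adjusted p = 0.557) and -0.39 over both days (standard error 0.11, 95% interval -0.64 to -0.14, adjusted p = 0.424). None of these passed. Without WT day 4 replicate 1 the effect over both days was -0.52 and passed (adjusted p = 0.0301), and without WT day 4 replicate 2, the array with the most muscle signal, it was -0.27 (adjusted p = 0.312). Of the macrophage genes, which do not include Csf1r, 0 were called by limma for KO against WT at either day or over both. The sum of the 18 tested of 20 listed genes was 164856 and 161371 in KO day 6 tumours, against 192715 and 191093 in WT day 6 tumours. At day 4 the sum was 148290 and 141981 in KO tumours, against 183553 and 219196 in WT tumours. Of these 18 genes, 16 had a negative KO effect over both days, with a median of -0.44. Adgre1, the macrophage antigen F4/80, had -0.74 and Cd68 had -0.53 over both days (adjusted p = 0.127 and 0.354), while Msr1, a scavenger receptor, had 0.76 (adjusted p = 0.127), and Cd163, the haemoglobin scavenger receptor, had 1.0 at day 6 and -0.95 at day 4. Marco was below the limit, and the part of these genes in the Csf1r result was not tested. With the day, Csf1r changed by 0.14 in KO tumours (95% interval -0.22 to 0.49) and by -0.05 in WT tumours (-0.41 to 0.30).

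Csf2ra, the GM-CSF alpha chain, did not pass in any comparison. It gave 1510.7 and 950.8 in KO day 6 tumours, 1533.9 and 1506.4 in WT day 6 tumours, 927.4 and 1147.4 in KO day 4 tumours, and 1015.8 and 1970.1 in WT day 4 tumours. The groups overlapped in all 4 comparisons, and the 2 arrays of KO day 6 and of WT day 4 lay far apart. The day effect was 0.21 in KO tumours (95% interval -0.51 to 0.93) and 0.10 in WT tumours (-0.62 to 0.82), and the KO effect was -0.34 at day 6 (-1.06 to 0.38) and -0.45 at day 4 (-1.17 to 0.27).

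Csf2rb, the common beta chain, had the smallest adjusted p of the family. It gave 5149.8 and 4187.9 in KO day 6 tumours and 4613.1 and 4305.9 in WT day 6 tumours, against 1706.8 and 1536.3 in KO day 4 tumours and 2988.3 and 2638.1 in WT day 4 tumours. The day 6 groups overlapped, whereas at day 4 both KO arrays lay below both WT arrays. Csf2rb rose by 1.51 with the day in KO tumours, which is 2.85-fold (standard error 0.14, 95% interval 1.19 to 1.83, adjusted p = 0.00496 from limma). In WT tumours it rose by 0.66, which is 1.58-fold (standard error 0.14, 95% interval 0.34 to 0.99, adjusted p = 0.0351). With single arrays left out, the KO call was lost only without one or the other KO day 4 array, at adjusted p = 0.0627 without replicate 1 and 0.104 without replicate 2. The WT call was kept without either KO day 6 array, and was lost without any WT array or either KO day 4 array, at adjusted p = 0.0583 to 0.22. The KO effect was -0.79 at day 4 (standard error 0.14, 95% interval -1.11 to -0.46, unadjusted p = 0.000438, adjusted p = 0.342) and 0.06 at day 6 (-0.26 to 0.38, adjusted p = 0.959).

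Csf2rb2, the beta chain of the mouse IL-3 receptor and the neighbour of Csf2rb on chromosome 15, had signals of 1280.2 and 1429.1 in KO day 6 tumours and 1199.4 and 1150.5 in WT day 6 tumours. At day 4 they were 498.7 and 648.5 in KO tumours and 857.2 and 1197.2 in WT tumours. KO tumours held the highest group at day 6 and the lowest group at day 4, and the day groups of WT overlapped. The rise with the day in KO tumours was 1.23 (standard error 0.20, 95% interval 0.77 to 1.68, adjusted p = 0.0217 from limma), and in WT tumours the difference was 0.21 (-0.25 to 0.67, adjusted p = 0.553). The KO call was lost without any one of the 4 KO arrays (adjusted p = 0.0626 without day 6 replicate 1, 0.0933 without day 6 replicate 2, 0.14 without day 4 replicate 1 and 0.152 without day 4 replicate 2). The KO effect was 0.20 at day 6 (-0.26 to 0.66, adjusted p = 0.895) and -0.82 at day 4 (-1.27 to -0.36, adjusted p = 0.466).

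Csf3r, the G-CSF receptor, gave 618.5 and 704.2 in KO day 6 tumours, against 438.0 and 420.3 in WT day 6 tumours. At day 4 it gave 313.3 and 434.0 in KO tumours, against 700.2 and 477.3 in WT tumours. KO was the higher genotype at day 6 and the lower one at day 4, with no overlap at either day. With the day, both KO arrays were higher and both WT arrays lower. The KO effect was 0.60 at day 6 (standard error 0.24, 95% interval 0.05 to 1.15, adjusted p = 0.770 from limma) and -0.63 at day 4 (standard error 0.24, -1.17 to -0.08, adjusted p = 0.648). The day effect was 0.81 in KO tumours (0.26 to 1.36, adjusted p = 0.0793) and -0.42 in WT tumours (-0.97 to 0.13, adjusted p = 0.318). The KO value passed with each array centred on its median (0.98, adjusted p = 0.0429), without WT day 4 replicate 1 (adjusted p = 0.0487) and without WT day 4 replicate 2 (adjusted p = 0.045). Neutrophil genes took the same signs as Csf3r in their medians, but not gene by gene. Of the 12 tested, 8 were positive and 4 negative for KO against WT at day 6. At day 4, 3 of these genes were positive and 9 negative, and 0 were called at either day. Their sum was 15896 and 12514 in KO day 6 tumours, against 11826 and 12171 in WT day 6 tumours, with a median log2 fold change of 0.33 over the 12 tested genes. At day 4 the sum was 8418 and 13201 in KO tumours, against 27766 and 7964 in WT tumours, with a median of -0.33. The array with the highest Csf3r signal at day 4, WT replicate 1, also had the highest neutrophil sum, and S100a8, a neutrophil calcium-binding protein, gave 5636.4 there and 297.4 on WT day 4 replicate 2. Over all arrays the highest Csf3r signal was 704.2, on KO day 6 replicate 2, where the neutrophil sum was 12514. Elane, Camp and Ltf were below the limit. The part of these genes in the Csf3r result was not tested.

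**Figure D2:**
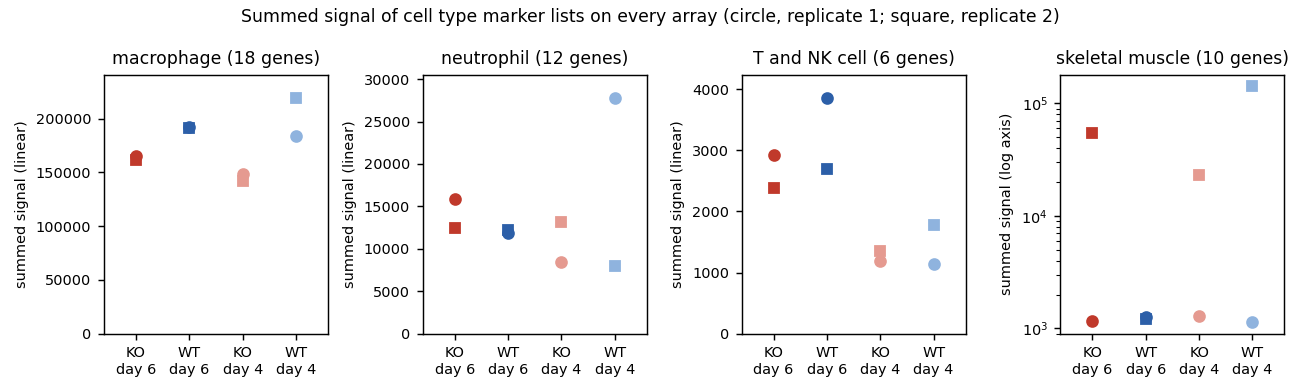
Summed signal of the tested genes of 4 cell type marker lists on every array, on linear axes that start at 0 for macrophage, neutrophil and T and NK cell genes and on a log axis for skeletal muscle genes, with a circle for replicate 1 and a square for replicate 2. The macrophage sum is lower in KO than in WT tumours at both days, the neutrophil sum is highest on WT day 4 replicate 1 at 27766, and the muscle sum is high on 3 arrays.

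Read as a family, day 6 against day 4 gave 4 members past the test in KO tumours, all higher, and 3 in WT tumours, all higher, or 3 and 2 without Csf2. Over all 12976 genes, 6.23% were called in KO tumours, 3.71% as higher, and 5.83% in WT tumours, 4.16% as higher. At an unadjusted p under 0.05, 5 members in KO and 3 in WT tumours stood below it, beside 26.1% and 25.6% of all genes tested, and the methods' t-test on the same values gave 4 and 2, with 0 of either after Benjamini-Hochberg adjustment. Without the trend in the moderation 1 member, Csf2rb, was called in KO and 0 in WT tumours. The count of members called was 0 without either KO day 4 array, 1 without either KO day 6 array, 3 without either WT day 6 array and 5 without either WT day 4 array in KO tumours. In WT tumours it was 1 without either KO day 6 array or without WT day 4 replicate 2, and 0 without each of the other 5 arrays. Centring each array on its median moved the median of all genes to 0.17 in KO and 0.20 in WT tumours and raised the share of calls that were higher, at 84.3% against 59.6% in KO and 91% against 71.4% in WT. The median log2 fold change of the 8 members was 0.92 in KO and 0.16 in WT tumours, beside -0.000334 and 0.01 over all genes tested. In KO tumours 7 members had both day 6 arrays above both day 4 arrays, as did 30.7% of all genes tested. In WT tumours 3 did, Csf1, Csf2 and Csf2rb, against 29.1% of all genes tested. Both counts include Csf2, and the KO count also includes Csf3, which was below the expression limit and outside these shares. The counts at an unadjusted p under 0.05 and the medians of the 8 members include Csf2 as well. As the family was chosen with earlier results of these data known, its counts and medians are a description. Csf3r was the member whose WT day 6 arrays were both lower, a separation seen in 24.6% of all genes, and 1% of them were also higher in KO tumours.

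KO against WT gave 0 members past the test at day 6, where 0.0154% of all genes were called (2 of 12976, with 824 genes, or 6.35%, at an unadjusted p under 0.05), and 0 members at day 4, with again 0.0154% (922 genes, or 7.11%, at an unadjusted p under 0.05). Over both days 0 members and 0.0308% of genes were called by limma, with 1127 genes, or 8.69%, at an unadjusted p under 0.05. The unadjusted p was under 0.05 for 1 member at day 6, for 4 members at day 4 and for 2 members over both days, and the methods' t-test had 2, 1 and 1 there and 0 after adjustment. At day 6 the groups did not overlap for 3 members that were higher in KO, Csf2rb2, Csf3 and Csf3r, and for 1 that was lower, Csf1r, where 16.1% and 20.9% of all genes tested did so. Of these members, Csf3 was below the expression limit and so outside the shares. At day 4 they did not overlap for 4 members that were lower in KO, Csf1r, Csf2rb, Csf2rb2 and Csf3r, and for 0 that were higher, where 16.8% and 19.6% of all genes did so. The median KO effect of the 8 members was 0.01 at day 6 and -0.54 at day 4, beside -0.01 and 0.01 over all genes. The comparisons share arrays, since the KO day 4 arrays enter both the low day 4 values and the rises with the day.

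**Figure D3:**
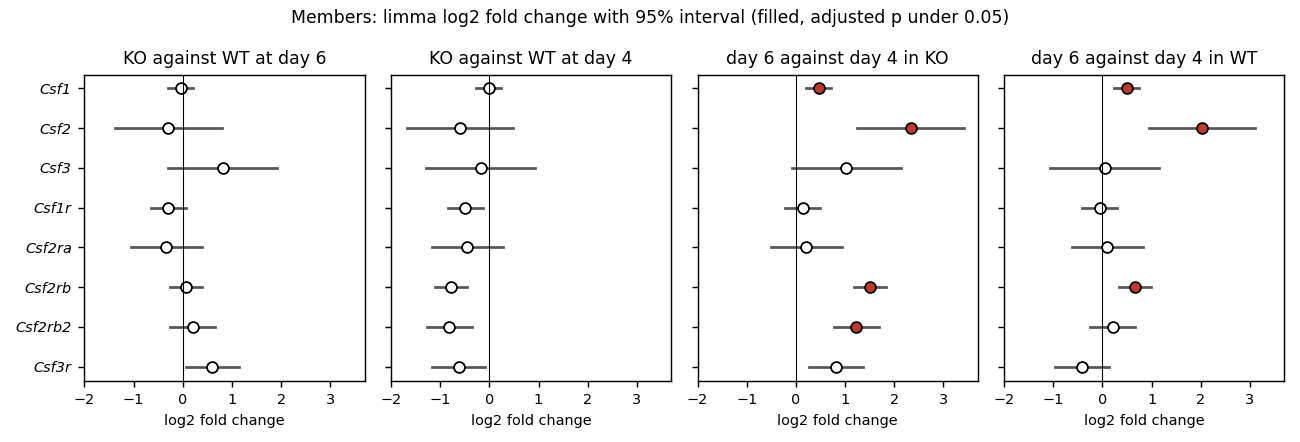
Log2 fold change of each member with its 95% interval from limma, in KO against WT at day 6 and at day 4, and in day 6 against day 4 in KO and in WT tumours, where filled points had an adjusted p under 0.05. The filled points are Csf1, Csf2, Csf2rb and Csf2rb2 in KO tumours and Csf1, Csf2 and Csf2rb in WT tumours, and no point of KO against WT is filled.

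Whether the effect of the KO changed with the day was tested for all genes, and 0% were called by limma (568 genes, or 4.38%, at an unadjusted p under 0.05). An unadjusted p under 0.05 was found for 3 members, Csf3r with a difference of 1.23 (standard error 0.34, 95% interval 0.45 to 2.0, adjusted p = 0.995), Csf2rb2 with 1.02 (standard error 0.28, 0.37 to 1.66, adjusted p = 0.995) and Csf2rb with 0.85 (standard error 0.20, 0.39 to 1.30, adjusted p = 0.995). Csf2rb2 and Csf3r were higher in KO at day 6 and lower in KO at day 4 with no overlap at either day, as were 1.9% of all genes tested. The changes of these receptors with the day are therefore not shown to differ between KO and WT tumours.

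More than 1 probe set was present for 4 members, and the others were read from a single one. All 15 probe sets that name 1 member entered a fit of the 45101 probe sets, in which 3 of them, both sets of Csf2rb and that of Csf2rb2, were called with the day in KO tumours and 0 in WT tumours, where 1.37% and 1.46% of all probe sets were called. The second Csf2rb set rose by 0.94 in KO tumours (adjusted p = 0.0339 from limma) and had 0.43 in WT tumours (adjusted p = 0.236), and its KO effect at day 4 was -0.60. The second Csf1 set gave 0.54 with the day in KO and 0.69 in WT tumours, and the 2 fainter sets of Csf1 gave 0.10 and 0.10 in KO and 0.37 and 0.56 in WT tumours, so the 4 sets of Csf1 moved unequally. The 3 sets of Csf1r had KO effects of -0.30, -0.45 and -0.52 at day 6 and of -0.49, -0.39 and -0.65 at day 4. One more probe set names both Csf2rb2 and Csf2rb and is given to neither gene. It read 304.1 and 42.3 in KO day 6 tumours and 188.8 and 237.8 in WT day 6 tumours, against 39.0 and 46.8 in KO day 4 tumours and 35.2 and 18.5 in WT day 4 tumours, which puts KO day 6 replicate 2 among the day 4 arrays.

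**Figure D4:**
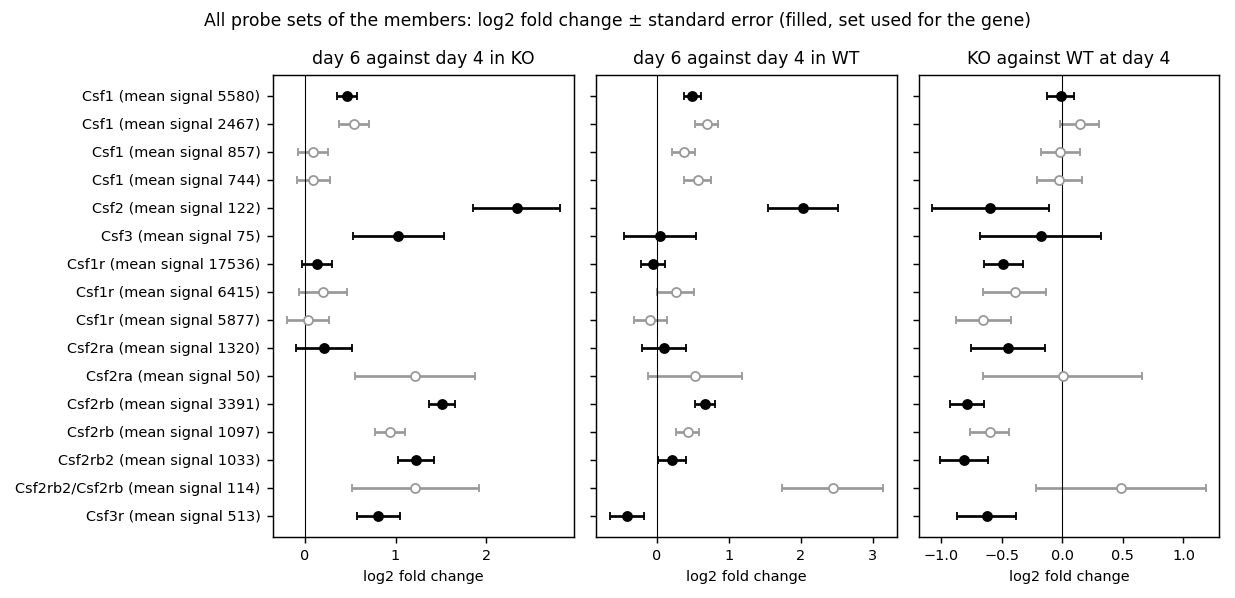
Log2 fold change and standard error of every probe set of the members, for day 6 against day 4 in KO and in WT tumours and for KO against WT at day 4, with filled points for the set used for a gene. Both Csf2rb sets lie above 0 in KO tumours with the day, and all 3 Csf1r sets lie below 0 for KO against WT at day 4.

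The genes whose signals followed a member most closely over the 8 arrays were found by the root mean square difference of log2 values, each gene centred on its own mean. For Csf1, which itself varied by 0.245 around its mean, they were Gps1 (0.0439), Rbck1 (0.0522) and Psmb2 (0.0561). For Csf1r, at 0.239 of its own, they were Adap2 (0.0609), Gm10336 (0.0708) and C1qb (0.085), the last a subunit of the complement component C1q that macrophages make. Csf2 varied by 1.17 and was followed by Cxcl11 (0.285), a chemokine of the interferon response, Il2rb (0.388), a chain of the IL-2 receptor, and Clec7a (0.391), the beta-glucan receptor dectin-1. Around Csf2ra were Evi2a (0.0986), Marchf1 (0.116) and Vstm4 (0.13), and around Csf2rb were AA467197 (0.155), Slfn2 (0.211) and Slc15a3 (0.226). Csf2rb2 was followed by Fcgr3 (0.126), the low-affinity IgG receptor of myeloid cells, Atp8a1 (0.171) and Opa3 (0.195), and Csf3r by Gpat3 (0.178), Selp (0.187) and Il18r1 (0.204). Among the members, the smallest distances were between Csf1r and Csf2ra (0.229), Csf1 and Csf1r (0.304) and Csf2rb and Csf2rb2 (0.305). For Csf1 and Csf1r the distance was larger than the variation of either gene (0.245 and 0.239). It therefore does not show that this ligand and its receptor followed each other. All these distances are over the same 8 arrays and carry no test.

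Of the ligands and receptors that use the same chains, Il34, the second ligand of CSF-1R, read 1157.2 and 1449.1 in KO day 6 tumours, 1196.8 and 867.7 in WT day 6 tumours, 1036.6 and 1156.6 in KO day 4 tumours and 1079.3 and 1130.0 in WT day 4 tumours, and was short of the test in every comparison. Il3ra, the alpha chain of the IL-3 receptor, had a difference of -0.67 between KO and WT at day 4 (adjusted p = 0.677 from limma). Il3, the neighbour of Csf2 on chromosome 11, and Il5 and Il5ra were below the expression limit, with mean signals of 41.8, 45.9 and 18.8. Sdc1, a heparan sulphate proteoglycan listed with the receptor partners, rose with the day by 1.15 in KO and 1.52 in WT tumours (adjusted p = 0.0363 and 0.02).

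The genes that act after the receptors were read from lists chosen for their role. These lists were also chosen with earlier results of these data known, so their counts and medians are a description. For the counts with the day in these lists, 6.23% of all 12976 genes tested were called in KO tumours, 3.71% as higher. In WT tumours 5.83% were called, 4.16% as higher. Of 30 tested signalling genes, 3 were called as higher with the day in KO tumours. They were Socs1 with 2.23 and Socs2 with 1.31, both feedback inhibitors of JAK and STAT signalling, and Cbl, a ubiquitin ligase that takes CSF-1R off the surface, with 0.57 (adjusted p = 0.0107, 0.035 and 0.0373 from limma). In WT tumours 0 were called as higher and 1 as lower, Pik3cd, a leukocyte kinase, by 0.74 (adjusted p = 0.0462). Of the 30 genes, 15 had a positive value in WT tumours and 15 a negative one. Socs1 had 0.86 and Socs2 0.75 there (adjusted p = 0.0837 and 0.132 from limma). Jak2, the kinase bound to the beta chain, had a log2 fold change of 0.54 in KO and 0.10 in WT tumours, short of the test. KO against WT gave 0 calls among the signalling genes, and 28 of the 30 had a negative value at day 4, with a median of -0.28 beside 0.01 over all genes. The share of all genes with a negative value at day 4 was not counted. The 30 genes were read on the same arrays and are not separate observations.

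Of 25 tested targets of the receptors, 3 were called as higher with the day in KO tumours and 0 in WT tumours. The 3 were Cd274 (the checkpoint ligand PD-L1) with 2.34, Ccl17, a chemokine for T cells, with 2.21 and Socs2. In WT tumours Ccl17 had 1.84, Socs2 0.75 and Cd274 0.39 (adjusted p = 0.0757, 0.132 and 0.531 from limma). Socs2 is in both the signalling and the target list. The shares of all genes called with the day, given with the signalling genes, stand beside the counts of these lists too. Cd274 read 2453.1 and 1128.6 in KO day 6 tumours, against 361.5 and 275.0 in KO day 4 tumours. It read 734.7 and 952.6 in WT day 6 tumours, against 757.9 and 531.5 in WT day 4 tumours. Of 15 tested myeloid transcription factors, Tfec, a macrophage factor, rose by 1.94 in KO tumours and Klf4, which acts in monocyte differentiation, fell by 0.65 (adjusted p = 0.0132 and 0.0325), and 0 were called in WT tumours. Of the 18 tested genes that induce the ligands, 3 were called as higher in KO tumours, Il6 by 1.59, Il17rc by 0.74 and Il1r1 by 0.99. In WT tumours 2 were called as higher, Il17rc by 1.17 and Ets1 by 0.60. Il6 encodes an inflammatory cytokine, Il17rc and Il1r1 encode chains of the IL-17 and IL-1 receptors, and Ets1 is a T-cell and stromal transcription factor. Il1b, an inducer of all 3 ligands, had a log2 fold change of 1.23 in KO and 1.25 in WT tumours and passed in neither. Of 9 tested genes of the decay of ligand mRNAs, Hnrnpd, which binds AU-rich elements, rose in WT tumours by 0.64 (adjusted p = 0.0239). Of 11 other haematopoietic growth factors and receptors, 0 were called in either direction in any of the 5 comparisons.

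**Figure D5:**
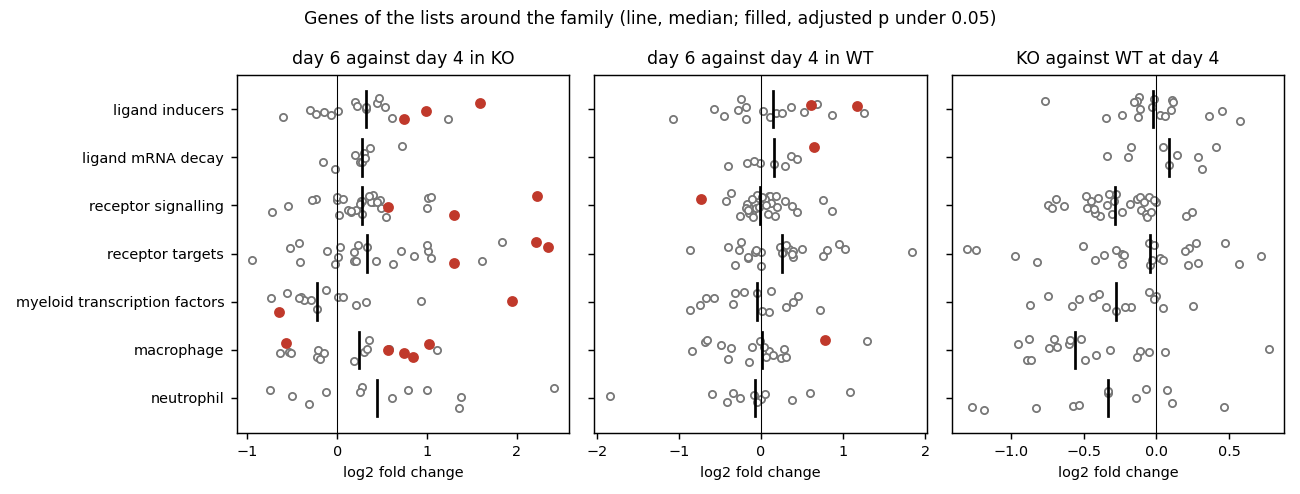
Log2 fold change of the tested genes of 7 lists, for day 6 against day 4 in KO and in WT tumours and for KO against WT at day 4, where each point is 1 gene, lines are medians and filled points had an adjusted p under 0.05 in limma. Receptor signalling genes lie mostly below 0 at day 4 in KO against WT, with a median of -0.28, and no filled point is in that comparison.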

How the data were processed

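Each of 8 arrays (Affymetrix mouse arrays with 45101 probe sets) carries the deposited signal intensity of each probe set, a linear value that the authors made and scaled to a trimmed mean of 1000. The submitters' processing notes name MAS5 with no version. The labels give 4 groups, KO and WT hosts at day 6 and day 4, with 2 arrays each. Probe sets of 1 symbol numbered 34958, and 932 with several symbols and 9211 with none were not named as genes.

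Values were log2(signal + 16), fitted in R 4.3.3 with limma 3.58.1 as 4 groups with a trend (4 residual degrees of freedom), for the 12976 of 18194 genes whose mean log2 signal reached the 40th percentile over all probe sets, and p-values were adjusted by Benjamini and Hochberg and called under 0.05. Csf3, below the percentile, was taken from a fit of all genes. Members were counted as not overlapping where both arrays of a group lay above both of the other. The members and lists were chosen with earlier results of these data known. Named were the members, Il34, Il3, Il3ra, Il5 and Il5ra, up to 4 called genes and 2 others a list, the 3 closest genes to each tested member, and markers where an array stood apart. Gzmb, Klrd1, Adgre1, Cd68, Msr1 and Cd163 fall outside this rule and were chosen after their values were seen. Alternatives were other scalings, pseudocounts, filters, probe sets, groups in the fit, a replicate block, the methods' t-test and leaving out each array. The number of arrays limits the precision. The fit was also run on simulated data with independent noise for each gene and changes added to the KO day 6 group. No result given here rests on that run. Replicate numbers of the labels were not used as pairs in the main fit.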

Additional observations from a re-analysis of the deposited data

Results flagged for a closer look

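Csf2rb2 was higher in KO than in WT tumours at day 6 and lower at day 4, with no overlap at either day. The difference between the KO effects was 1.02 (adjusted p = 0.995 from limma). Csf3r went the same way, with a difference of 1.23 (adjusted p = 0.995). The same value of 1.23 for Csf3r also belongs to the change with the day, which was higher on both day 6 arrays than on both day 4 arrays in KO tumours and lower in WT tumours. Neither difference passed after adjustment over all genes.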

How the results depend on the processing

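Of 803 member results under other settings, 694 kept direction and side of the threshold, 67 were weaker, 4 stronger and 38 reversed. Deviations from the group means correlated from -0.12 to 0.27 between same-numbered arrays. The pairs among KO day 6, WT day 4 and KO day 4 had 0.22 to 0.27, and the pairs with WT day 6 had -0.12 to -0.03. Whether same-numbered arrays shared handling was not tested. With the replicate block 3 members were called with the day in KO and 2 in WT tumours, and 325 and 463 genes in all. KO against WT at day 6 called 2 genes, and 0 with pseudocount 1, the 60th percentile filter, no trend, the replicate block, only the groups compared and the t-test. At day 4 it called 1 with the 60th percentile filter, no trend and only the groups compared, and 0 with the t-test. Over both days it called 2, 1 and 0 under the 60th percentile filter, no trend and the t-test. The day in KO called 1342 genes with median centring, 523 without a filter, 398 with the mean of all probe sets, 74 without trend, 1747 with only the groups compared and 1 with the t-test, with 1 member without trend and 0 with the t-test. The day in WT called 1784, 473, 9, 11 and 0 genes with median centring, mean of probe sets, no trend, only the groups compared and the t-test. Its members called were 1 with the mean of all probe sets and 0 without trend, with only the groups compared and with the t-test. Leaving out 1 array, or KO day 6 replicate 2 and WT day 4 replicate 2 together (a setting chosen after seeing the data), gave 0 to 26 genes for KO against WT at day 6, 0 to 11 at day 4, 1 to 58 over both days with 0 to 1 members, 3 to 1368 for the day in KO with 0 to 5 members, 4 to 890 for the day in WT with 0 to 1 members, and 0 to 9 for the difference of KO effects. Leaving out both arrays together called 3 members in KO and 0 in WT.

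Reversed values were Csf1 at day 6, KO against WT, 0.0197 with median centring, and at day 4 0.0641 with median centring and 0.0219 with the mean of all probe sets. Csf1r with the day in WT was 0.0184 with quantile normalization, 0.13 with median centring and 0.0368 with the mean of all probe sets. Under that mean KO against WT at day 6 was 0.175 for Csf2ra and -0.0161 for Csf2rb. With arrays left out, KO against WT at day 6 ran from -0.0906 to 0.00961 for Csf1, -0.73 to 0.14 for Csf2 and -0.0895 to 0.208 for Csf2rb. At day 4 it ran from -0.0916 to 0.0624 for Csf1, -0.923 to 0.022 for Csf2ra and -0.427 to 0.0698 for Csf3. The day in WT ran from -0.305 to 0.195 for Csf1r, -0.37 to 0.57 for Csf2ra, -0.027 to 0.447 for Csf2rb2 and -0.55 to 0.63 for Csf3, and the day in KO from -0.12 to 0.54 for Csf2ra. The difference of KO effects ran from -0.103 to 0.0511 for Csf1, -0.058 to 0.442 for Csf1r, -0.17 to 1.21 for Csf2 and -0.36 to 0.58 for Csf2ra. Low signals near background limit Csf2 at day 4 and Csf3. The cause of these changes was not tested.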
